A study of Mus musculus with 6 samples.

Results

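CSF1 is the main growth factor of macrophages, and the 6 genes described here are Csf1, its receptor gene Csf1r and 4 further genes widely used as macrophage or leukocyte markers, Lyz2, Cd14, Cd68 and Cd53. They were chosen by symbol with the comparison of the genotypes already known, so their differences between the genotypes are given as a description and not tested. All 6 were among the 12389 genes of the table used here, and all 6 passed the filter on low values that left 12363 genes. RNA was sequenced from primary aortic smooth muscle cells grown out of pieces of mouse thoracic aorta, untreated and at passage 6 or below. There were 3 cultures from mice with a smooth muscle-specific loss of LRRC8A (KO), the obligatory subunit of the volume-regulated anion channel, and 3 from wild-type mice (WT), described by the submitters as independent biological replicates. Genotypes were taken from the sample titles, because the separate genotype field says wild type throughout. The promoter driving the deletion, the strain, the age and the sex of the animals are not stated in the labels used here. Values are scaled reads as deposited, each library's estimated reads having been divided by its own factor.

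CSF1 is secreted or held on the cell surface by stromal cells, among them smooth muscle, endothelium and fibroblasts, and binds CSF1R, a receptor tyrosine kinase of monocytes and macrophages. Signalling through that receptor keeps macrophages alive and lets them divide and differentiate, and it does so in the arterial wall as elsewhere. Cultured smooth muscle cells can also switch on some genes usually counted as macrophage markers, so a marker read in bulk RNA does not by itself name the cell it came from. Fewer cells of a type and less RNA per cell cannot be told apart in such libraries.

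The targeted gene Lrrc8a had 868, 672.5 and 506 scaled reads in KO replicates 1 to 3, against 2578, 2194 and 1221 in WT replicates 1 to 3, so the 3 KO libraries lay below the 3 WT libraries, as the titles would have it. The estimated depth was 31.0 to 47.9 M reads per library. Of 14 contractile smooth muscle markers 11 were analysed here, and their summed level was 89505, 94789.9 and 214203 scaled reads in KO replicates 1 to 3 and 87058, 95529 and 416591 in WT replicates 1 to 3. The libraries numbered 3 therefore stood apart from the others in both genotypes in these markers, and the values for the 6 genes are given with and without them.

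Sequence upstream of the start site is shown for Csf1, Lyz2 and Cd53, the 3 genes whose KO libraries all lay below their WT libraries. The stretches are the 250 bases before the RefSeq start on build GRCm38.p6, each on the minus strand, written 5′ to 3′, with motif matches in capitals. They lie at chr3:107760470-107760719 for Csf1, chr10:117282273-117282522 for Lyz2 and chr3:106790150-106790399 for Cd53.
Csf1: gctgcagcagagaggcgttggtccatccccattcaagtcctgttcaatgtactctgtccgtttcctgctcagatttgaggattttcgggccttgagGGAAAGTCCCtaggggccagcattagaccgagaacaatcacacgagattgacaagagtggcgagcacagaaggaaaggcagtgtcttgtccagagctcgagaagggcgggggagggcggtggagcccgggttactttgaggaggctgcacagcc
Lyz2: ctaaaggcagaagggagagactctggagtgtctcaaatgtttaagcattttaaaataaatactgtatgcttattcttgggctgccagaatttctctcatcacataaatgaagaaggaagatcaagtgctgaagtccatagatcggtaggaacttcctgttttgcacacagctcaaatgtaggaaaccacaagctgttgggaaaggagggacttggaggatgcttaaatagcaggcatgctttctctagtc
Cd53: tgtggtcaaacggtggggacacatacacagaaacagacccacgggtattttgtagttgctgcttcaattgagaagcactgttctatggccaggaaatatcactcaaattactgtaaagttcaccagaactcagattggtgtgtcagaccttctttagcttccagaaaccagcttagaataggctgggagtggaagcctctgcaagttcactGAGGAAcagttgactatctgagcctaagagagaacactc

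The motifs searched, on both strands, were the NF-kB decamer, whose reverse complement is in capitals in the Csf1 sequence, the core GAGGAA bound by the myeloid factor PU.1 and its ETS relatives, and the AP-1 element TGANTCA. The Csf1 stretch held 1 NF-kB decamer, on the opposite strand, with its first printed base 154 bases before the start. Among all 32851 such RefSeq stretches of the same length, 0.14% held that decamer. Cd53 held 1 GAGGAA core, 39 bases before the start, and 23.3% of all stretches held one. In the Lyz2 stretch none of these letters were found, which says nothing of the factors themselves. The Cd68 stretch, not printed, held 1 GAGGAA core at 225 bases and TGAGTCA at 149 and 24 bases before the start, and 6.75% of all stretches held an AP-1 element. Stretches of 4 of the 6 genes were searched, and genes on chromosome 18, Csf1r and Cd14, were left out of the search.

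Csf1, the ligand (ENSMUSG00000014599, protein coding, GRCm38 chromosome 3, 107741048 to 107760469, minus strand), had 35389, 33002 and 25991 scaled reads in KO replicates 1 to 3, against 103046, 53653 and 66758 in WT replicates 1 to 3. The highest KO library was below the lowest WT library, and WT replicate 1 stood well above the other libraries of its genotype. The means were 31461 ± 4885 in KO and 74486 ± 25587 in WT (SD, n = 3 each), or 2.37-fold lower in KO. From the limma model across all genes, the log2 difference, KO over WT on log2(value + 2), was -1.20 (SE 0.32). Csf1 ranked 59 of 12389 genes by mean scaled reads, so its value rests on 28536 to 86849 estimated reads per library. Without WT replicate 1 the log2 difference was -0.94, without the libraries numbered 3 it was -1.12, and with library quality weights it was -0.78.

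Csf1r encodes the receptor (ENSMUSG00000024621, chromosome 18, 61100598 to 61132149, plus strand). It had 212, 441 and 899 scaled reads in KO replicates 1 to 3, against 587, 719.8 and 858 in WT replicates 1 to 3. The genotypes overlapped, since KO replicate 3 was the highest of all 6 libraries and KO replicate 1 the lowest. The means were 517 ± 350.0 in KO and 722 ± 136 in WT (SD, n = 3 each), with a log2 difference of -0.70 (SE 0.50). A single library decides that value, which was -0.18 without KO replicate 1, -1.22 without KO replicate 3 and -1.08 without replicate 3 of both genotypes. Csf1r overlaps the opposite-strand gene Hmgxb3, and whether strand was used in counting is not given in the sources used here, so Csf1r reads are uncertain to that extent. Hmgxb3 had 1594, 1610.3 and 1692 scaled reads in KO replicates 1 to 3 and 2048.5, 2259 and 1717 in WT replicates 1 to 3. The 3 KO libraries had the same order in both genes, and the 3 WT libraries did not. The part of shared reads was not tested.

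Cd53 encodes a tetraspanin of the leukocyte surface (ENSMUSG00000040747, chromosome 3, 106759921 to 106790149, minus strand). Its values were 87.7, 177 and 97.5 scaled reads in KO replicates 1 to 3 and 492, 544 and 282 in WT replicates 1 to 3, with no overlap. Of the 6 genes it had the largest difference in fold, at 121 ± 48.9 in KO and 439 ± 139 in WT (SD, n = 3 each), or 3.64-fold lower in KO. The log2 difference was -1.86 (SE 0.42) and ran from -2.17 to -1.67 when single libraries were left out, and it was -2.04 without replicate 3 of both genotypes.

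Lyz2 encodes lysozyme M, the secreted enzyme of myeloid cells that cleaves bacterial cell walls (ENSMUSG00000069516, chromosome 10, 117277331 to 117282321, minus strand). It had 97.3, 269 and 239.8 scaled reads in KO replicates 1 to 3, against 482, 300.0 and 693 in WT replicates 1 to 3. The genotypes were parted narrowly, between KO replicate 2 and WT replicate 2. Its means were 202 ± 92.0 in KO and 492 ± 197 in WT (SD, n = 3 each), with a log2 difference of -1.32 (SE 0.49). That difference was -0.87 without KO replicate 1, -1.22 without replicate 3 of both genotypes and -0.68 with library quality weights. Lyz2 has a near-identical neighbour, Lyz1, which was not analysed here, and reads shared between the pair make its level uncertain.

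Cd14 encodes the anchored surface protein that passes bacterial lipopolysaccharide to Toll-like receptor 4 (ENSMUSG00000051439, chromosome 18, 36725067 to 36726798, minus strand). The KO libraries lay close together at 442, 496 and 479 scaled reads in replicates 1 to 3, against 1292, 1291 and 401 in WT replicates 1 to 3. WT replicate 3 was the lowest of all 6 libraries, while the other WT libraries were each over every KO library. Means were 472 ± 27.7 in KO and 995 ± 514 in WT (SD, n = 3 each), and the log2 difference was -0.89 (SE 0.46). Without WT replicate 3 it was -1.45, without replicate 3 of both genotypes -1.46, and with library quality weights -1.36.

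Cd68 encodes macrosialin, a heavily glycosylated protein of late endosomes and lysosomes (ENSMUSG00000018774, chromosome 11, 69664213 to 69666153, minus strand). It was the lowest of the 6, at 83.4, 159 and 58.4 scaled reads in KO replicates 1 to 3 and 255, 214 and 42.7 in WT replicates 1 to 3, and WT replicate 3 was again the lowest library of all. In estimated reads the range was 54 to 215 per library. The means of 100.4 ± 52.7 in KO and 170.4 ± 112 in WT (SD, n = 3 each) differed by less than the SD within WT, with a log2 difference of -0.52 (SE 0.81). That difference was -0.06 without WT replicate 1, -1.32 without WT replicate 3 and -1.003 without replicate 3 of both genotypes.

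**Figure D1:**
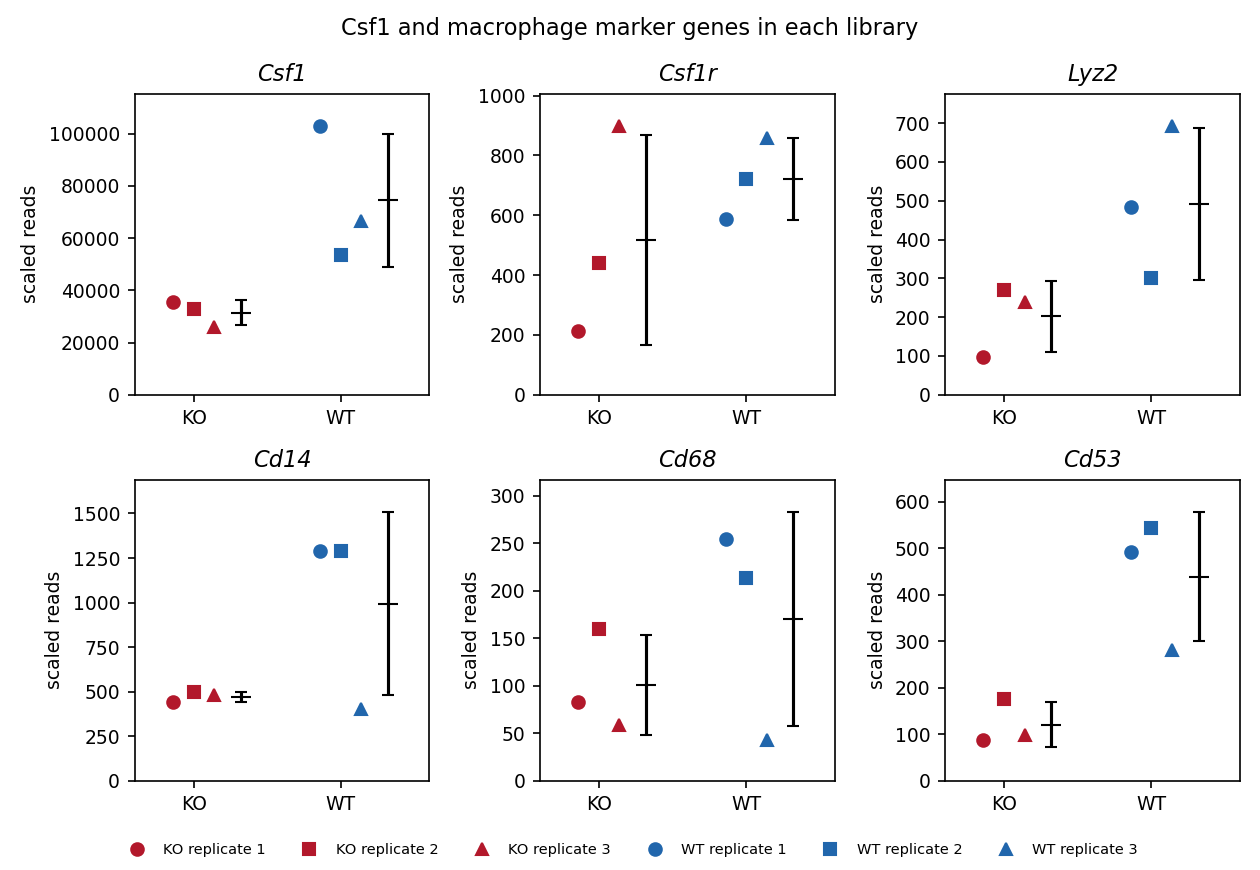
Scaled reads of the 6 genes in each library, KO left of WT, with the replicate shown by the symbol and the mean ± SD (n = 3) beside each genotype. Csf1, Lyz2 and Cd53 have no overlap between the genotypes, Csf1r is highest in KO replicate 3, and WT replicate 3 is the lowest library for Cd14 and Cd68.

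All 6 genes thus had a log2 difference below 0, where 49.6% of all tested genes did and the median over all genes was 0.00. For 3 of the 6, every KO library was below every WT library, which held for 4.51% of all tested genes, while 8.43% had no overlap in either direction. As the genes were chosen with this comparison known, nothing is read from these shares. Without WT replicate 3 the count was 5 of 6, where 11.3% of all genes were so ordered. Without replicate 3 of both genotypes it was 6 of 6, where 18.7% of all genes were. By same-numbered libraries, 6 of 6 genes were lower in KO in replicates 1 and 2, and 3 of 6 in replicate 3. Over all tested genes limma called 0 at a Benjamini-Hochberg adjusted p of 0.05 (0% of 12363). Unadjusted p-values from limma were under 0.05 for 447 genes (3.62%), 266 of them lower in KO (2.15%). A false discovery rate (FDR) under 0.05 was given by the authors' deposited table to 65 of 12389 genes (0.525%), of which 51 were lower in KO (0.412%). In the authors' deposited table Csf1 had a log2 ratio of -1.24 at an FDR of 0.0233 and Cd53 -1.87 at 0.0288. The authors' deposited table gave the other 4 genes FDRs of 0.611 (Lyz2), 0.747 (Cd14) and 1 (Csf1r and Cd68).

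Levels of different genes were compared per kilobase of annotated exon (GENCODE M21). In KO, Csf1 had 5957 ± 925 scaled reads per kb, followed by Cd14 with 273 ± 16.0, Lyz2 with 154 ± 69.9, Csf1r with 89.6 ± 60.6, Cd68 with 79.9 ± 41.9 and Cd53 with 69.3 ± 28.1 (SD, n = 3 each). In WT the levels per kb were 14104 ± 4845 for Csf1, 574 ± 297 for Cd14, 374 ± 149 for Lyz2, 252 ± 79.7 for Cd53, 136 ± 89.5 for Cd68 and 125 ± 23.5 for Csf1r (SD, n = 3 each). Csf1 stood apart from every marker in both genotypes. Cd14 and Lyz2 had separate ranges in KO, and all other neighbours in either order had overlapping ranges. The ligand exceeded its receptor per kb by 183-fold, 81.8-fold and 31.6-fold in KO replicates 1 to 3 and by 192-fold, 81.5-fold and 85.0-fold in WT replicates 1 to 3, so this ratio did not part the genotypes.

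Macrophage and monocyte markers beyond these were read from a list of 45 genes, of which 10 were analysed here. The other 35, among them Ptprc (CD45), Adgre1 (F4/80), Itgam (CD11b), Tyrobp and C1qa, were not analysed here. None of 17 lymphocyte, neutrophil and mast cell markers was analysed here, nor were 9 of 10 endothelial ones. Every gene of the table reached 200.5 estimated reads in at least 1 library. Cd53, Cd68 and Plek reached that level only in WT, having at most 153, 138 and 131 estimated reads in KO libraries. A low gene that enters the table only through WT tends to lie below 0. The counts below 0 and the medians of these markers are therefore partly set by that floor, and nothing is read from them. Of the 5 further markers with values, 0 passed in limma in either direction. Among them 0 had an unadjusted p under 0.05, which 3.62% of all tested genes had. A log2 difference below 0 was found in 4 of the 5, with a median of -0.62, against 49.6% and 0.00 over all tested genes. Over the whole list of 10, which includes 5 of the genes above, 0 passed, 9 were below 0 and the median was -0.79, or -1.42 without WT replicate 3 and -1.34 without replicate 3 of both genotypes. The summed level of the 10 markers was 1583, 2155 and 2269 scaled reads in KO replicates 1 to 3, against 4772, 4370 and 2495 in WT replicates 1 to 3. That sum includes the 5 genes chosen with the comparison known, and in it only WT replicate 3 came near the KO range. The 5 further markers alone summed to 662, 612 and 495 scaled reads in KO replicates 1 to 3. In WT replicates 1 to 3 they summed to 1664, 1302 and 219, so WT replicate 3 lay below every KO library.

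Mpeg1, a pore-forming protein of phagocytes, had 66.3, 279.7 and 18.5 scaled reads in KO replicates 1 to 3 and 653, 240.4 and 42.7 in WT replicates 1 to 3, so the genotypes overlapped widely (log2 difference -1.39, SE 1.27). Itgb2, the beta chain of the leukocyte integrins, had 107, 94.8 and 161 scaled reads in KO replicates 1 to 3 and 363, 291 and 56.2 in WT replicates 1 to 3. Plek, the leukocyte and platelet protein pleckstrin, had 76.4, 69.3 and 93.2 in KO replicates 1 to 3 and 159.8, 277 and 91.9 in WT replicates 1 to 3. In both genes WT replicate 3 was the only WT library within or below the KO range. The remaining markers, given to complete the list, were Mertk at a log2 difference of 0.77 (SE 1.29) and Lcp1 at -0.34 (SE 1.19). Mertk, an efferocytosis receptor, had 7.12 scaled reads in WT replicate 3 against 237 or more in the other WT libraries, and its group means ran the other way, at 139.5 in KO and 164 in WT.

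**Figure D2:**
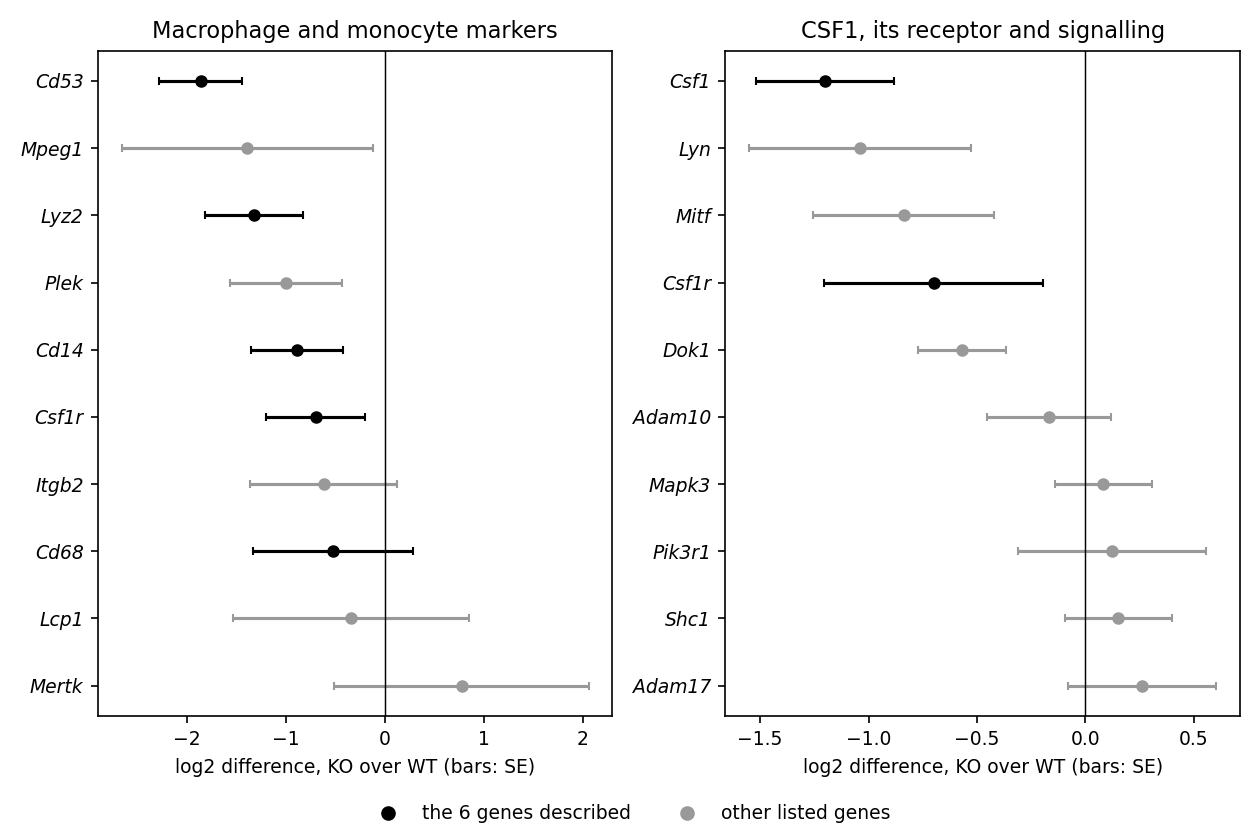
log2 difference, KO over WT, with its SE from limma. The analysed macrophage and monocyte markers are on the left. CSF1, its receptor and the other pathway genes named in the text, except Syk, are on the right. The 6 genes described are in black and the others in grey. Mertk alone lies above 0 on the left, while the grey genes on the right fall on both sides of 0.

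WT replicate 3 was the lowest WT library for 8 of the 10 analysed markers and the highest for Csf1r and Lyz2, where 39% of all genes in the table had their lowest WT value in that library. Its contractile markers were the highest of all 6 libraries, as given above. The 6 analysed epithelial and mesothelial markers summed to 9388, 7389.9 and 1127 scaled reads in KO replicates 1 to 3 and to 19995, 10896 and 6263 in WT replicates 1 to 3. Of these 6 genes 5 had a log2 difference below 0, with a median of -1.96, and 0 passed in limma. Without Upk3b and Upk1b, the highest of them, the other 4 summed to 3075, 3938 and 730 in KO replicates 1 to 3. In WT replicates 1 to 3 those 4 summed to 6067, 4237 and 391, so WT replicate 3 lay below every KO library. The 8 analysed fibroblast markers summed to 288891, 281650 and 360386 scaled reads in KO replicates 1 to 3 and to 218987, 217410 and 218610 in WT replicates 1 to 3. Of these 8 genes 5 had a log2 difference below 0, with a median of -0.33, against 49.6% and 0.00 over all tested genes. Without Col1a1 and Col1a2, the highest of them, the sums of the other 6 overlapped, at 30140.0, 40234 and 17778 in KO replicates 1 to 3 and 34862, 28060 and 18392 in WT replicates 1 to 3. The part of these other cell markers in the differences of the macrophage markers was not tested.

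Within the genotypes the markers fell into groups by how single libraries deviated from their genotype mean, a description over 6 libraries that share depth and scaling. Deviations of Cd14 and Cd68 had a Pearson r of 0.90, those of Cd68 and Cd53 of 0.89 and those of Cd14 and Cd53 of 0.73. Csf1r and Lyz2 had an r of 0.69 with each other. Between these groups r ran from -0.43 for Lyz2 and Cd14 to 0.03 for Lyz2 and Cd53, over 10 pairs of markers in all. In WT replicate 3, Cd14 deviated by -1.12 and Cd68 by -1.60 on the log2 scale, while Csf1r and Lyz2 deviated by 0.27 and 0.57. In KO replicate 1, Csf1r and Lyz2 deviated by -1.04 and -0.91. How far the groups rest on these single libraries was not tested.

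**Figure D3:**
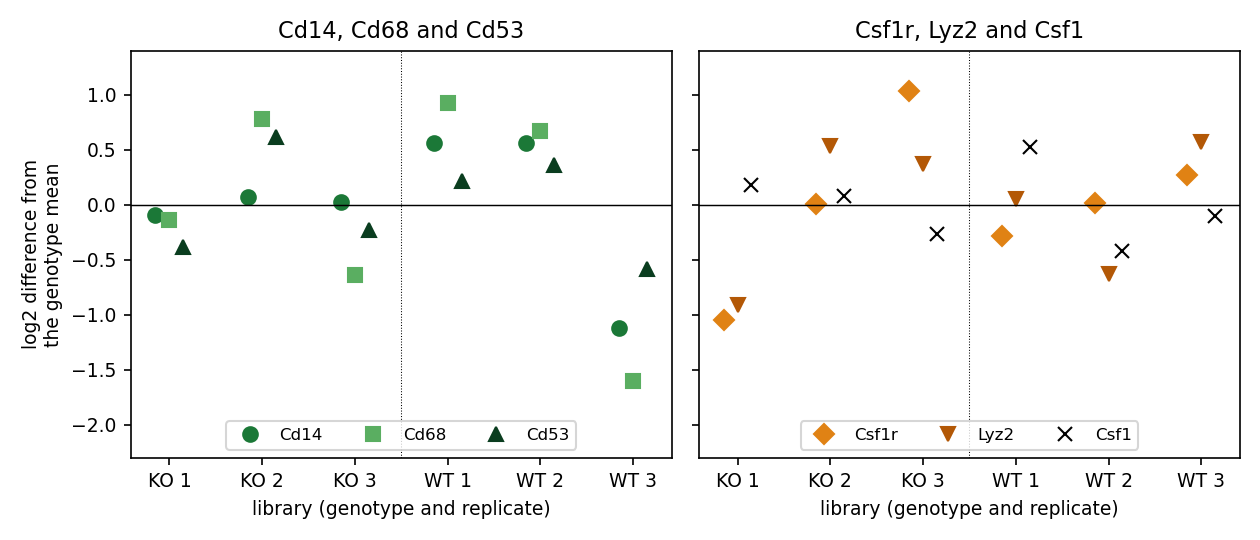
log2 difference of each library from the mean of its genotype, for Cd14, Cd68 and Cd53 (left) and for Csf1r, Lyz2 and Csf1 (right), KO libraries left of WT. Cd14, Cd68 and Cd53 all lie below 0 in WT replicate 3, where Csf1r and Lyz2 lie above 0.

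Csf1 was then set against each marker over the 6 libraries on the log2(value + 2) scale. Csf1 itself parted the genotypes, so a pooled r contains the genotype difference known when the genes were chosen, and its p is no independent evidence. Pearson's r was highest for Cd53 at 0.82 (exact two-sided permutation p = 0.0653, adjusted over the 5 markers 0.326), with a Spearman rho of 0.66 (exact p = 0.175, adjusted 0.438). For Lyz2 r was 0.67 (exact permutation p = 0.138, adjusted 0.344) and rho 0.77 (exact p = 0.103, adjusted 0.438). Cd14 had an r of 0.61 (exact permutation p = 0.249, adjusted 0.414) and a rho of 0.26 (exact p = 0.658, adjusted 0.823). For Cd68 the values were r = 0.40 (exact permutation p = 0.415, adjusted 0.519) and rho = 0.37 (exact p = 0.497, adjusted 0.823). Csf1r, the receptor, had an r of 0.22 (exact permutation p = 0.682, adjusted 0.682) and a rho of -0.09 (exact p = 0.919, adjusted 0.919). None of the 5 passed. Without replicate 3 of both genotypes, r over the other 4 libraries was 0.77 for Cd53, 0.74 for Lyz2, 0.85 for Cd14, 0.76 for Cd68 and 0.59 for Csf1r. The r for Cd14 was 0.27 without WT replicate 1. For Cd68 it was -0.04 without WT replicate 1 and 0.83 without WT replicate 3. For Csf1r it was -0.06 without KO replicate 1 and 0.62 without KO replicate 3.

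Without the pair of libraries farthest from the Csf1 median, KO replicate 3 and WT replicate 1, r over the other 4 was 0.70 for Cd53, 0.78 for Lyz2, 0.20 for Cd14, -0.42 for Cd68 and 0.83 for Csf1r. The values for Cd14, Cd68 and Csf1r thus rested on those libraries. With each genotype's mean removed, r was 0.08 for Cd53, 0.01 for Lyz2, 0.15 for Cd14, 0.34 for Cd68 and -0.56 for Csf1r. With the mean of each replicate number removed as well, r was 0.59 for Cd53, 0.99 for Lyz2, -0.23 for Cd14, 0.29 for Cd68 and 0.20 for Csf1r. The values thus depended on whether the libraries were paired by number. With both means removed, r rests on only 3 differences between same-numbered libraries, so a high r carries little weight. Each genotype holds 3 libraries, too few for a test of the relation within it, and in neither genotype did any marker order the 3 libraries as Csf1 did.

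**Figure D4:**
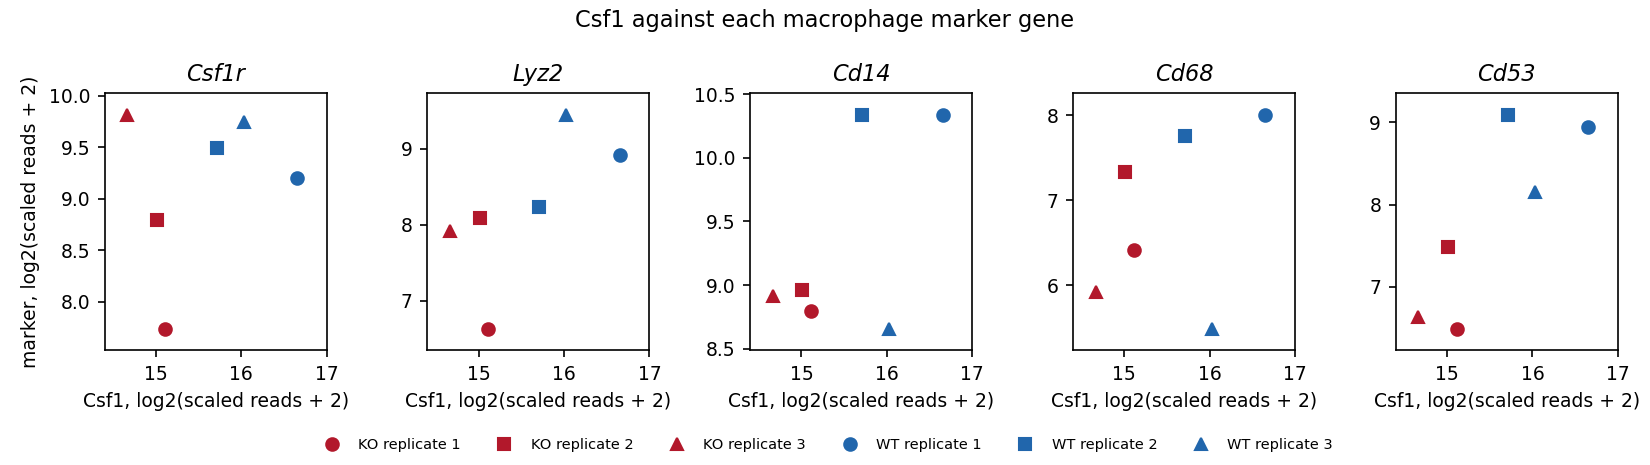
Each marker against Csf1 on the log2(scaled reads + 2) scale, 1 point per library, KO in red and WT in blue. The KO and WT points separate along the Csf1 axis in every panel, and within a colour no marker follows the order of Csf1.

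Many genes had a pattern nearer to that of Csf1 than any marker did. Among 10366 genes with a mean of at least 200 scaled reads, 24 had a Pearson r over 0.95 with Csf1 across the 6 libraries. Among the nearest were Hacd2 (r = 0.992), Ncstn (0.989), Ubn2 (0.983) and Angptl7 (0.981), each with all KO libraries below all WT libraries. Ncstn, which encodes the gamma-secretase subunit nicastrin, had a log2 difference of -0.68 (SE 0.21), and Angptl7, a secreted angiopoietin-like protein, one of -5.70 (SE 1.23). Angptl7 had only 27.8, 5.78 and 0.71 scaled reads in KO replicates 1 to 3, against 1415, 161 and 384 in WT replicates 1 to 3. Its log2 difference therefore depends on values near 0 and on the 2 added to each value. In that order of likeness Cd53 was at place 241, Lyz2 at 814, Cd14 at 1161 and Csf1r at 3852. For Cd14, the marker with the most scaled reads, the 5 nearest were Slu7 (r = 0.996), Hbegf (0.993), Bmp4 (0.992), Krr1 (0.986) and Zfand2a (0.980). In all 5 the genotypes overlapped, as they did in Cd14, by which the genes were picked. Hbegf, a ligand of the EGF receptor, had 343, 451 and 403 scaled reads in KO replicates 1 to 3 and 2169, 1652 and 342 in WT replicates 1 to 3. Its WT replicate 3 was at the level of the KO libraries, a pattern that the choice by likeness to Cd14 favours.

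The CSF1 pathway was read from a list of 34 genes, of which 22 were analysed here. Apart from Csf1 and Csf1r, 20 were tested, 0 passed in either direction, 10 were below 0 and 10 above, and the median log2 difference was 0.01, against 0.00 over all tested genes. The second CSF1R ligand, Il34, was not analysed here, nor were the other colony-stimulating factors Csf2 and Csf3. Adam17 and Adam10, proteases that shed membrane proteins including the cell-surface form of CSF1, had log2 differences of 0.26 (SE 0.34) and -0.17 (SE 0.29). Among the highest signalling genes, Shc1, Mapk3 and Pik3r1 had log2 differences of 0.15, 0.08 and 0.13 (SE 0.25, 0.22 and 0.43). The kinase gene Lyn had 496, 113 and 284 scaled reads in KO replicates 1 to 3 and 579.7, 476 and 509 in WT replicates 1 to 3, a log2 difference of -1.04 (SE 0.51). Syk, another kinase gene, ran the other way, with 387, 1212 and 1390 scaled reads in KO replicates 1 to 3. In WT replicates 1 to 3 Syk had 1144, 572 and 271, a log2 difference of 0.62 (SE 0.67) with overlapping genotypes. Mitf, a transcription factor that acts downstream of CSF1R in osteoclasts, had 269.5, 313 and 302 in KO replicates 1 to 3 and 612, 858 and 279 in WT replicates 1 to 3, with WT replicate 3 inside the KO range. One gene, the adaptor Dok1, had an unadjusted p under 0.05 in limma (log2 difference -0.57, SE 0.20, adjusted p = 0.999). Such a p was found for 3.62% of all tested genes. Dok1 and Syk were named after their values were seen.

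Around CD14, 11 further genes of Toll-like receptor signalling were tested. Besides Tlr4 with its partners and adaptors, they included the separate receptors Tlr2 and Tlr3 and the signalling genes Irak1, Irak4 and Traf6. In limma 0 passed and 0 had an unadjusted p under 0.05, which 3.62% of all tested genes had. Of the 11, 8 were below 0 and the median log2 difference was -0.19, against 49.6% and 0.00 over all tested genes. The receptor Tlr4 had 1838 ± 1119.7 scaled reads in KO and 2403 ± 1239 in WT (SD, n = 3 each), and its partner Ly96 had 223 ± 59.5 in KO and 193 ± 87.6 in WT. Tlr2 had 34.2, 126 and 171 scaled reads in KO replicates 1 to 3 and 341, 400.3 and 153 in WT replicates 1 to 3, parted but for WT replicate 3 (log2 difference -1.58, SE 0.70). Lbp, the lipopolysaccharide-binding protein, had a log2 difference of -0.52 (SE 1.59).

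Other lysosomal membrane glycoproteins stood far above Cd68 and near 0 in difference. Lamp1 had a log2 difference of -0.17 (SE 0.35), Lamp2 of -0.12 (SE 0.35), Cd63 of -0.04 (SE 0.36) and Scarb2 of -0.00 (SE 0.48), and 0 of these 4 passed in limma or had an unadjusted p under 0.05. Genes reported in smooth muscle cells that take on macrophage-like features gave 16 tested members besides Cd68. In limma 0 of these passed, 11 were below 0 and the median log2 difference was -0.26, against 49.6% and 0.00 over all tested genes. One of the 16, Plin2, which encodes a lipid droplet coat protein, had an unadjusted p under 0.05 (log2 difference -0.58, SE 0.24, limma adjusted p = 0.999). All its KO libraries were below all its WT libraries. Among all tested genes 3.62% had such a p and 4.51% such an order. The cathepsin genes Ctsd and Ctsb, the highest of the 16, had log2 differences of -0.36 (SE 0.34) and -0.36 (SE 0.37). Lgals3, which encodes the macrophage lectin galectin-3, had 4327, 4665 and 747 scaled reads in KO replicates 1 to 3 and 2457, 2246 and 1195 in WT replicates 1 to 3, so its KO libraries lay on both sides of the WT range. Plin2 and Lgals3 were named after their values were seen.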

How the data were processed

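The members and lists were chosen with earlier results of these data known. The authors named STAR, Partek and DESeq2, with GRCm39 or mm39 as builds, per the submitters' processing notes, which assign these names no step. Deposited positions nevertheless fit GRCm38: 12341 of 12385 identifiers share their start with GENCODE M21, and ends were taken as the deposited stop less 1 base. The deposited per-library table has a raw count name, yet its values are a scaled signal: estimated reads divided by a factor per library, with 83.0% to 92.4% of values up to 50 reads within 0.05 of a whole read, too few to recover reads. The authors' comparison of KO over WT holds, per the file headers, the ratio, the log2 ratio, the p-value, its FDR and the mean signal of each genotype.

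Count tests could not be used. limma 3.58.1 (R 4.3.3, statmod 1.5.0) with trend and robust priors was run on log2(value + 2) for genes with at least 10 in at least 3 libraries, two-sided. Its code was also run on simulated independent libraries. Those lack the shared deviations of same-numbered libraries, so that run does not measure the power of limma in these data. Correlations used all 720 pairings. Same-numbered libraries deviated together (r 0.43, 0.15 and 0.39), each over 0.1, and were treated as pairs in an alternative model, though no label says what the number marks. The median residual SD was 0.36 without and 0.26 with the replicate block. Named genes were all 6 members, genes of the myeloid, CSF1 pathway, lipopolysaccharide and lysosomal lists with the highest levels or largest differences, the 2 highest of other lists, the 5 with the highest r to Csf1 and to Cd14 (predicted genes left out) and Lrrc8a. Some genes that this rule covers are not reported here. Alternatives were other scalings, pseudocounts, filters, the other table, priors, library weights, the block and leaving out libraries. Leaving out replicate 3 of both genotypes was chosen after seeing the data. Precision was set by the spread between 3 libraries per genotype.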

Additional observations from a re-analysis of the deposited data

How the results depend on the processing

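In every setting run, library weights included, Csf1 and each of the 5 markers kept a log2 difference below 0. The count of genes passing in limma was 0 in the main model and 0 with the replicate block (917 at an unadjusted p under 0.05), 30 with library quality weights and 5 with weights and the block, where the weights stopped short of convergence. It ran from 0 to 1 when single libraries were left out. Library quality weights moved the log2 difference of Csf1 to -0.78. The cause of these shifts was not tested. The block alone left the count of genes passing and the log2 differences of Csf1 and the markers as they were, but it moved the r of deviations given below. Members with all KO libraries below all WT libraries numbered from 3 to 5 without single libraries and 6 without replicate 3 of both genotypes. Fewer libraries make such an order more common, as the shares over all genes show. Without single libraries, the r of Csf1 with Cd14 ran from 0.27 (without WT replicate 1) to 0.87 (without WT replicate 3), that with Cd68 from -0.0388 (without WT replicate 1) to 0.833 (without WT replicate 3), and that with Csf1r from -0.0596 (without KO replicate 1) to 0.622 (without KO replicate 3). For deviations from genotype means, adding the replicate block gave -0.23 in place of 0.15 for Cd14 and 0.20 in place of -0.56 for Csf1r. It gave 0.99 in place of 0.01 for Lyz2 and 0.59 in place of 0.08 for Cd53, and the cause was not tested. With the block, each such r rests on only 3 differences between same-numbered libraries. The median log2 difference of the 10 markers ran from -1.42 to -0.56 and that of the 22 pathway genes from -0.16 to -0.02 without single libraries. Low depth limits Cd68, at 54 estimated reads in its lowest library, and, among the other markers, Mertk at 9, Mpeg1 at 26 and Lcp1 at 26.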

Other observations

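Tetraspanins other than Cd53 were read as its family. Of 18 tested, 0 passed in limma in either direction. An unadjusted p under 0.05 was found in 2 of them, against 3.62% of all tested genes. Of the 18, 11 were below 0 and the median log2 difference was -0.12, against 49.6% and 0.00 over all tested genes. The highest, Cd63 and Cd81, had 26516 ± 12947 and 15167 ± 3083 scaled reads in KO, against 25486 ± 3558 and 16126 ± 2901 in WT (SD, n = 3 each). The genes with an unadjusted p under 0.05 were Tspan18 and Tspan12. Tspan18 had 222, 987 and 301 scaled reads in KO replicates 1 to 3 and 27.3, 207 and 19.0 in WT replicates 1 to 3, so every KO library was above every WT library. Tspan12 had 303, 273 and 302 in KO replicates 1 to 3 and 372, 637 and 1215 in WT replicates 1 to 3, with every KO library below every WT library. Genotypes without overlap, in either direction, were found in 8.43% of all tested genes. Tspan18 and Tspan12 were named after their values were seen.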
